A study of Caenorhabditis elegans with 2 samples.

Results

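The regions described here come from ChIP-seq of TBX-8, a T-box transcription factor of Caenorhabditis elegans. Their listed summit, which was the middle of the region, lies inside the 3′ untranslated part (3′ UTR) of a protein-coding gene. They were taken from the authors' pooled list of peaks and background regions by position alone. The summit had to lie in an annotated 3′ UTR and in no coding sequence (CDS). It also had to lie outside the window running 1000 bp upstream to 200 bp downstream of every protein-coding transcript start, and more than 200 bp from any tRNA, snRNA, snoRNA or rRNA gene. The rule was met by 394 of the 16355 pooled regions, which is 2.41% of the list. No measured signal was used to choose them.

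The material was whole embryos of strain RW10470, obtained by egg bleaching, of mixed stage and mixed sex and labelled with an age of 2.5 hours. The strain carries st10470, a transgene in which TBX-8 is joined at its C terminus to TY1, EGFP and 3xFLAG tags and which holds unc-119(+), in an unc-119(ed3) background. The antibody was against GFP according to the descriptions, although the antibody field of the labels names tbx-8, and sonicated DNA had a labelled size range of 200 to 800 bp. Both biological replicates (n = 2) form 1 group, so conditions cannot be compared, and all comparisons below are between regions of one list. The tag marks the transgene product only, and in whole embryos binding in few cells and weaker binding in many cells cannot be told apart.

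The 3′ UTR is the transcribed stretch between the stop codon and the site where the messenger RNA is cleaved and polyadenylated. In the RNA it carries the polyadenylation signal and sites for microRNAs and RNA-binding proteins, whereas a ChIP region there reports on the DNA beneath it. The worm genome is compact, so the end of a gene often lies close to the start of the next gene on the same strand or to the end of a gene on the other strand, and some downstream genes are co-transcribed in operons. T-box factors bind DNA through a conserved domain whose preferred sites hold the core GGTGTG or its reverse complement. TBX-8 is known, together with its close relative TBX-9, for a role in shaping the embryo through the epidermis and body-wall muscle.

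Sequences around the T-box core are shown first because they are the DNA words a T-box factor is known to read. The core was searched on both strands within 100 bp of each summit and was found in 14 of the 394 regions. The runs below are 30 bases of WBcel235, printed 5′ to 3′ on the strand where the core reads GGTGTG, with the core in capitals. They are from 3 of the regions of higher signal and from syd-9, where the core was nearest to the summit among the 10 regions for which that distance was taken.
W06H8.6, chrV:6223464-6223493, plus strand: tttaaaaaaacaGGTGTGgagtcttctaaa
Y43F8C.17, chrV:19717400-19717429, minus strand: gtagttacacatGGTGTGctagtggtgggc
B0524.6, chrIII:1900930-1900959, plus strand: aaatttccgggcGGTGTGtccgaatttata
syd-9, chrX:7226340-7226369, plus strand: ttcattgttaagGGTGTGgtggtgccggac
The core lay 2 bp from the summit in syd-9 and 28 bp from it in B0524.6, against 68 bp in W06H8.6 and 70 bp in Y43F8C.17. In the first 3 regions printed the core lay on the strand opposite to the host gene, and in syd-9 on the same strand.

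The second set shows the other words searched, GAGAGA and GGGCGG, in the regions of highest signal that hold them. GAGAGA, the GAGA word, is the core of GAGA-type elements, which are common in worm regulatory DNA, and GGGCGG, the SP1-type word, is the core of GC boxes bound by SP1-type zinc-finger factors. These regions and the 4 above were picked after their values had been seen.
ZK131.11, chrII:13817346-13817375, minus strand: gagagagagagaGAGAGAgctacaataatc
unc-70, chrV:6891560-6891589, minus strand: gagttgcgggacGAGAGAttattcgagtgg
daf-2, chrIII:2994893-2994922, plus strand: aaattgctcacaGAGAGAagtaatatgtat
nhr-119, chrII:2794762-2794791, minus strand: cgccgattttgtGGGCGGagctagtaagcc
trcs-2, chrII:8725176-8725205, minus strand: atgatttctcaaGGGCGGcccacgccagtt
mnk-1, chrII:10543886-10543915, plus strand: ttagagttgaggGGGCGGatgggcatttgt
In ZK131.11 the word is the end of a longer run of GA repeats, whereas in unc-70 and daf-2 it stands in other sequence. Among the 3 regions with GGGCGG the word lay 22 bp from the summit in nhr-119, 32 bp in mnk-1 and 84 bp in trcs-2.

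Signal at 3′ UTRs was low and close to that of the rest of the list. The authors' signal value (unit not stated, compared here only within a list) had a median of 33.8 in the 394 regions, with quartiles of 30.1 and 40.3. It had a median of 34.6 in all other pooled regions, with quartiles of 30.5 and 41.7, so the log2 ratio of the medians was -0.03. Against regions away from promoters the medians were alike too: 33.8 in 3′ UTRs, against 33.1 in coding exons, 33.9 in introns and 34.2 between genes. What differed was the upper end. The highest 3′ UTR region had a signal of 89.4, against 117 in coding exons, 201.5 in introns, 331 between genes and 571 in the other pooled regions as a whole. The classes differ in size (394 regions in 3′ UTRs, against 2263 in coding exons, 4376 in introns and 3132 between genes), and a larger class can reach a higher maximum by number alone.

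**Figure D1:**
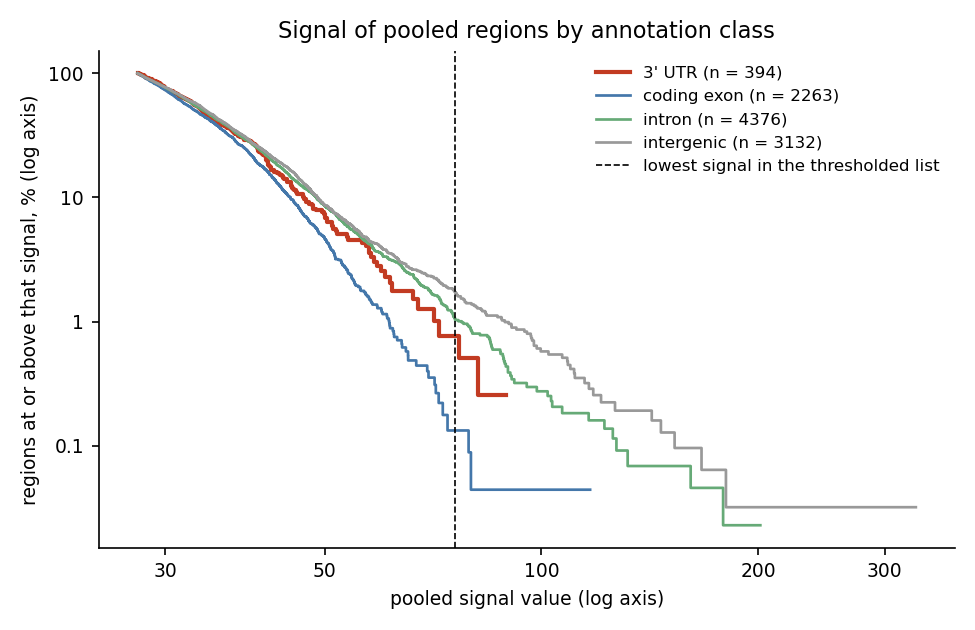
Share of regions at or above each signal value, for 3′ UTR regions and for coding exon, intron and intergenic regions away from promoters (both axes logarithmic; signal in the authors' unit). The curves lie together over most of the range and part at the top, where the 3′ UTR curve ends at 89.4. The dashed line is the lowest signal of the thresholded list, 75.8.

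Graded by rank in the pooled list, the 3′ UTR regions were spread through it and thinned towards the top. They made up 2.67% of ranks 12267 to 16355 (109 regions), 2.69% of ranks 8178 to 12266 (110 regions), 2.37% of ranks 4089 to 8177 (97 regions) and 1.91% of ranks 1 to 4088 (78 regions). Among ranks 522 to 1000 they made up 1.46% (7 regions), and among the 521 highest 0.576% (3 regions). Those 521 regions are the authors' list thresholded for reproducibility, and its lowest signal was 75.8. Of the 521, 206 lay in promoter windows and 195 near small RNA genes, places that the rule leaves out.

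Few of the regions stood in the authors' thresholded list or had a low q-value. In the thresholded list stood 3 of 394 (0.761%, 95% Wilson interval 0.259 to 2.21%), against 3.19% of all pooled regions. At a q-value below 0.05, a threshold set here on the authors' q-values, stood 7 of 394 (1.78%, interval 0.863 to 3.62%), against 5.39% of all pooled regions. Set beside other places away from promoters, the share in the thresholded list was 0.761% in 3′ UTRs, against 0.133% in coding exons, 1.07% in introns and 1.76% between genes. The share at a q-value below 0.05 was 1.78% in 3′ UTRs, against 0.751% in coding exons, 3.02% in introns and 3.29% between genes. The interval for 3′ UTRs thus held the intron and intergenic shares in the thresholded list and in the q-value count, and held the coding exon share in neither.

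The region of highest signal lay in the 3′ UTR of pals-26, a gene of the large pals family (chromosome III, 4378657 to 4379116). Its signal was 89.4 in the pooled list, at rank 344, with 48.2 at rank 383 in the list of replicate 1 and 44.1 at rank 341 in the list of replicate 2. It was the only 3′ UTR region among the 521 highest of both replicates. Its UTR is 74 bases long, shorter than the 460 bp region. The gene srpr-1.1, annotated as a non-coding RNA, is not covered by the small RNA limit of the rule. It lies within 200 bp of the summit, and its part in the signal was not tested. The next protein-coding gene, B0284.3, ends 434 bp downstream on the other strand.

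The other 2 regions of the thresholded list lay in bed-2, which encodes a BED zinc-finger protein, and in ZK131.11. The bed-2 region (chromosome III, 11463713 to 11464172) had a pooled signal of 81.8 at rank 434, with 50.4 at rank 341 in replicate 1 and 31.7 at rank 968 in replicate 2. It was high in both replicates, and the sequence within 100 bp of its summit had a G+C content of 56.7%, against a median of 34.8% over the 394 regions. The ZK131.11 region (chromosome II, 13817062 to 13817521), which holds the GA run printed above, had a pooled signal of 76.9 at rank 501. Its place differed between the replicate lists, with 25.6 at rank 4034 in replicate 1 and 49.4 at rank 244 in replicate 2. The next gene downstream, the histone gene his-16, lies 468 bp away and points towards it.

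The 4 further regions at a q-value below 0.05 lay in unc-70, vab-1, F54D5.17 and mig-6. The first lay in the 1308-base 3′ UTR of unc-70, the gene of beta-spectrin of the membrane skeleton (chromosome V, 6891379 to 6891838). Its pooled signal was 72.1, with 35.9 at rank 1032 in replicate 1 and 26.6 at rank 1936 in replicate 2. A second and overlapping unc-70 region had a pooled signal of 39.6, so the 2 are not independent, and a non-coding RNA gene, K11C4.14, lies within 200 bp of the first summit. The second lay in vab-1, the Eph receptor tyrosine kinase (chromosome II, 4590623 to 4591082), with a pooled signal of 71.03, 38.55 at rank 797 in replicate 1 and 23.1 at rank 3568 in replicate 2. In vab-1 the convergent gene ipla-1 ends 86 bp from the summit.

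The F54D5.17 and mig-6 regions at a q-value below 0.05 were uneven between replicates. The F54D5.17 region (chromosome II, 11557012 to 11557471) had a pooled signal of 67.4 and 42.05 at rank 586 in replicate 1, and no region of replicate 2 had its summit within 100 bp. A second and overlapping F54D5.17 region had a pooled signal of 53.85 and was found in both replicates. It had 27.3 at rank 3103 in replicate 1 and 26.5 at rank 1964 in replicate 2. The mig-6 region (chromosome V, 7834162 to 7834621) lay 1047 bases into a 3220-base UTR. The gene encodes papilin, a secreted protein of the extracellular matrix. Its pooled signal was 66.4, with 44.7 at rank 491 in replicate 1 and 19.1 at rank 7494 in replicate 2.

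Below the q-value threshold the next 13 regions ran from 62.1 to 53.6. They lay in npr-23 (a neuropeptide receptor gene), zig-11 (an immunoglobulin-domain gene, with 2 regions), dpy-18 (a prolyl 4-hydroxylase subunit that modifies collagen) and C54C6.7. Others lay in daf-2 (the insulin receptor homolog), nhr-119 (a nuclear hormone receptor), H06I04.3, scpl-1, trcs-2, mef-2 (the MEF2 transcription factor), F54D5.17 again and mnk-1 (a MAP-kinase-interacting kinase). The daf-2 region (chromosome III, 2994661 to 2995120) had a pooled signal of 59.1 and 29.2 at rank 2316 in replicate 1, and no match in replicate 2. The dpy-18 region (chromosome III, 11372732 to 11373191) was the reverse, with a pooled signal of 60.6, 16.5 at rank 17155 in replicate 1 and 36.7 at rank 596 in replicate 2. Some of these 13 ranked far higher in replicate 1, such as H06I04.3 at rank 407 with no match in replicate 2. Others ranked far higher in replicate 2, such as nhr-119 at rank 8055 in replicate 1 and 851 in replicate 2.

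**Figure D2:**
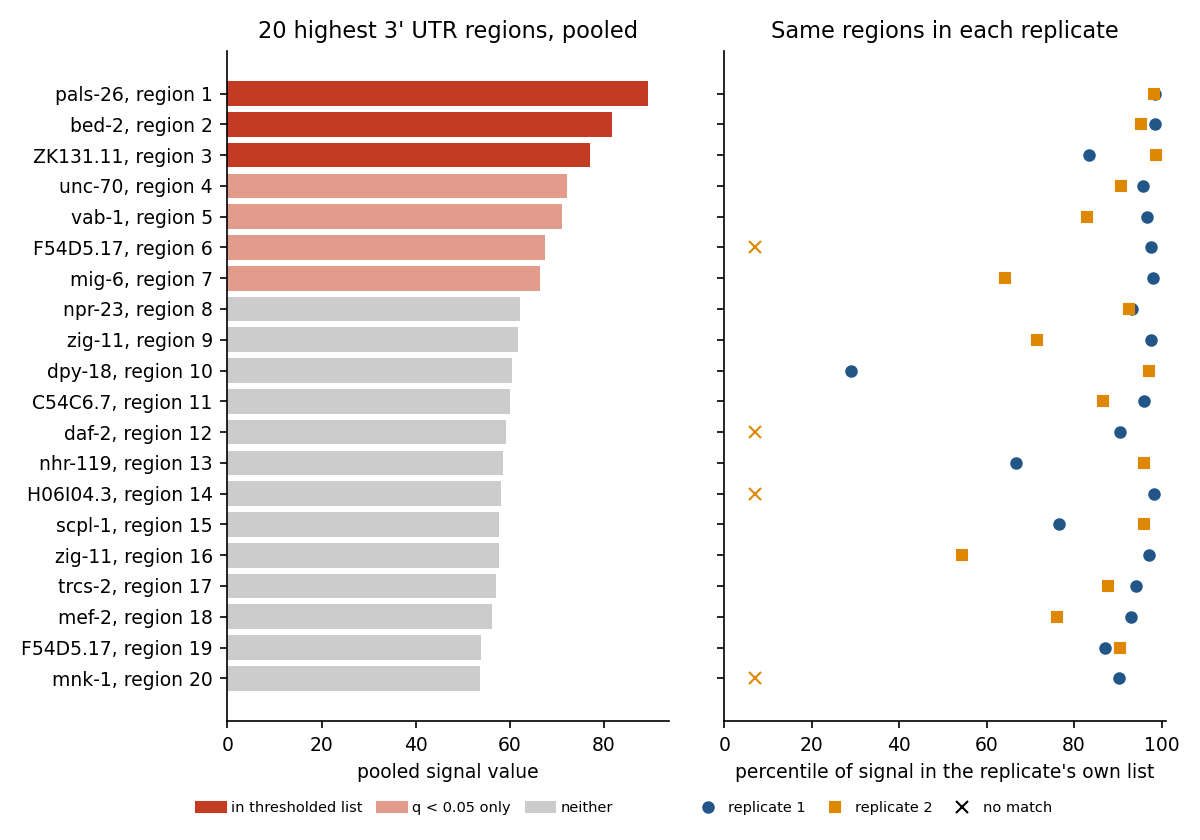
Left, pooled signal (authors' unit) of the 20 highest 3′ UTR regions by host gene, coloured by whether the region is in the thresholded list, at a q-value below 0.05 only, or neither. Right, percentile of the same region's signal in each replicate's own list, with a cross where no summit of that list lay within 100 bp (its place on the axis carries no value): pooled signals run from 89.4 in pals-26 to 53.6 in mnk-1, and 4 regions have no match in replicate 2.

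Agreement between replicates at 3′ UTRs was weak over the whole set and better at its top. A region was counted as found in a replicate when that list had a summit within 100 bp. By this count 112 of 394 were found in both replicates (28.4%, interval 24.2 to 33.1%), against 30.5% of all pooled regions. The share was 23.2% in coding exons, 26.6% in introns and 30.1% between genes. Replicate 1 held 245 of the 394 (62.2%), replicate 2 held 223 (56.6%), and 38 were in neither. Since the pooled list is made from the same reads, being found again is no independent support.

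Of the 197 regions of higher signal, 90 were found in both replicates (45.7%), against 22 of the 197 of lower signal (11.2%). Of the 20 highest, 16 were found in both. The same split was not made for the other pooled regions, so these counts do not set 3′ UTRs apart. Over the 112 regions found in both, the log2 signals of the replicates had a Spearman's correlation of 0.16 and a Pearson's r of 0.23. These were 0.12 and 0.20 in coding exons, 0.26 and 0.39 in introns, 0.23 and 0.47 between genes, and 0.39 and 0.66 over all pooled regions. The last include promoter regions (0.41 and 0.62) and regions near small RNA genes (0.84 and 0.85), which the rule leaves out. The points share 2 libraries, and the values are descriptions only.

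The rule was also applied to each replicate's own list. In replicate 1 it was met by 575 of 24167 regions (2.38%), with a median signal of 18.4 against 18.8 in the other regions of that list. In replicate 2 it was met by 583 of 20865 (2.79%), with a median of 17 against 17.3. Among the 521 highest regions of each list stood 4 in replicate 1 and 3 in replicate 2. The small share of 3′ UTRs at the top was therefore seen in both lists taken alone.

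Counted per base, summits in 3′ UTRs were about as dense as in introns. The annotation holds 3.35 Mb of 3′ UTR outside coding sequence, of which 2.34 Mb (69.9%) met the distance limits of the rule. The density was 168 regions per Mb in 3′ UTRs (95% Poisson interval 152 to 186), against 119.1 in coding exons (114 to 124), 161 in introns (157 to 166) and 145 between genes (140 to 151). These densities count the whole list, most of which has a q-value above 0.05, and they were not corrected for how well reads map.

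The density of 3′ UTR regions differed between chromosomes. It was 232 per Mb on chromosome III (83 regions, interval 185 to 288) and 207 on chromosome I (72 regions, 162 to 261). It was 175 on chromosome II (63 regions), 158 on chromosome IV (56 regions), 132 on chromosome V (54 regions, 99.4 to 173) and 128 on the X chromosome (66 regions, 99.1 to 163). Intron regions numbered 204 per Mb on chromosome III, 184 on chromosome II and 179 on chromosome I, against 142 on chromosome V, 137 on chromosome IV and 127 on the X chromosome. Of the 3 thresholded 3′ UTR regions, 2 lay on chromosome III and 1 on chromosome II.

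**Figure D3:**
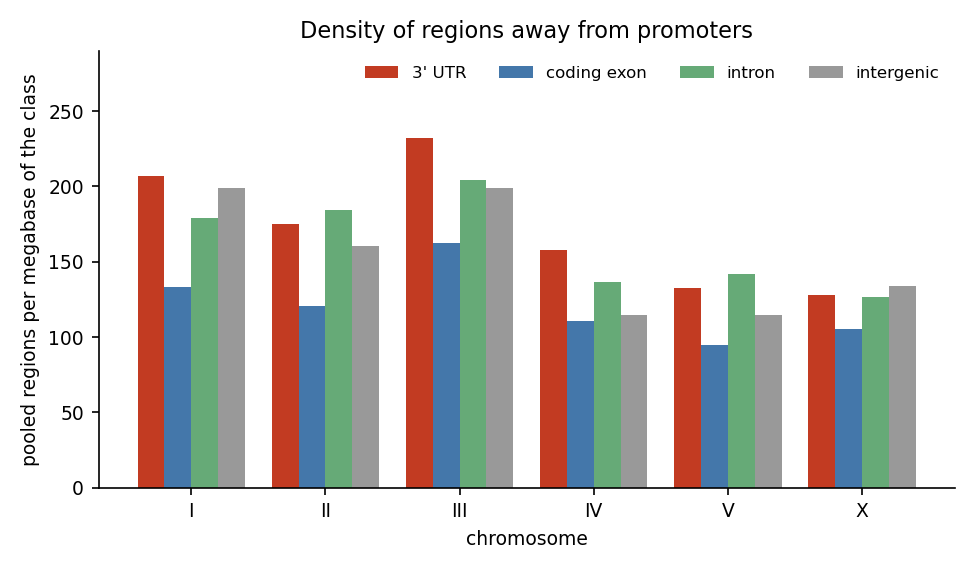
Pooled regions per Mb of eligible sequence on each chromosome, for 3′ UTRs, coding exons, introns and intergenic sequence away from promoters. Chromosome III is highest for 3′ UTRs at 232 per Mb and the X chromosome lowest at 128.

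Host genes had longer 3′ UTRs than other eligible genes. The 394 regions lay in 382 genes, out of 12048 with at least 1 eligible base of 3′ UTR (3.17%). The median length of the longest annotated UTR was 482.5 bases in host genes, against 137 bases in all eligible genes. A region was found in 72 of 7816 genes with a UTR of up to 200 bases (0.921%) and in 128 of 2982 with 200 to 500 bases (4.29%). It was found in 102 of 900 with 500 to 1000 bases (11.3%) and in 80 of 350 with more than 1000 bases (22.9%). A longer UTR offers more bases for a summit to fall on, so this order is not a measure of preference for long UTRs.

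Several genes carried more than 1 region, 26 in all. The gene rga-9 carried 3, with signals from 41.8 down to 29.1. The endocytosis gene rabx-5 carried 2, with signals of 51.2 and 49.99 in a UTR of 2097 bases, and hsp-3, which encodes a chaperone of the endoplasmic reticulum, carried 2 with 41.6 and 41.5. The Rac gene ced-10 carried 2, with signals of 40.4 and 29.2. Because 48 regions had their summit within 460 bp of another of the set, and 15 lay in the UTRs of 2 genes at once, regions and hosts are not independent counts.

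The summit lay anywhere along the UTR. From the stop codon to the end, successive stretches of 25% of the UTR length held 86, 96, 106 and 106 summits (21.8, 24.4, 26.9 and 26.9%). To give a baseline, every 50th base that met the same rule was taken, 46858 in all, and these fell at 26.1, 25.2, 24.3 and 24.4%. The median distance from the summit to the UTR end was 211.5 bases in the regions, against 144 bases in the baseline. The UTRs themselves were longer, with a median of 514.5 bases against 344, and the distance from the stop codon was longer too, with 218.5 bases against 137. The median relative position was 53.4% of the way to the end in the regions, against 48.8% in the baseline. Within 100 bases of the UTR end lay 124 summits (31.5%), against 39% of the baseline.

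Most regions covered more than the UTR. The listed width was 460 bp for 99.8% of the pooled list, and the summit was the middle of the region in all 394, so a summit here is a midpoint. Of the 394 regions, 174 had a UTR shorter than 460 bases and 107 (27.2%) lay wholly in 3′ UTR. Coding sequence was reached by 232 (58.9%), sequence outside every protein-coding gene by 130 (33.0%) and a promoter window by 24 (6.09%).

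The next gene downstream was most often convergent, that is, on the other strand with its end nearest. It was the first protein-coding gene with its near edge beyond the summit, which passes over any gene overlapping the summit. It was convergent for 252 of 394 regions (64.0%, interval 59.1 to 68.5%), against 57.3% of the baseline. It was tandem, on the same strand with its start nearest, for 139 (35.3%, interval 30.7 to 40.1%), against 42.5% of the baseline, and 3 regions had none. The rule itself sets part of this, because it removes a summit within 1000 bp of a tandem start: with no promoter window left out, 52.2% were tandem. The median distance to the next gene was 3081 bp for tandem genes (shortest 1002 bp) and 585 bp for convergent genes (shortest 3 bp). A convergent gene ended within 1000 bp of 171 regions (43.4%), against 38.2% of the baseline.

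Among the 20 regions of highest signal the nearest next genes were convergent, which the rule largely sets by removing summits within 1000 bp of a tandem start. The nearest were ipla-1 at 86 bp from the vab-1 summit, cct-7, a chaperonin subunit gene, at 183 bp from a zig-11 summit, gei-17, a SUMO ligase gene, at 192 bp from mef-2, and T01B7.9 at 258 bp from trcs-2. The tandem next genes lay at 1174 bp or more. They included tba-7, an alpha-tubulin gene, at 1174 bp from dpy-18, sft-1 at 1455 bp from H06I04.3, K11C4.2 at 3469 bp from unc-70, ben-1, a beta-tubulin gene, at 4043 bp from C54C6.7, and Y55D5A.4 at 4834 bp from daf-2. At the summit itself a protein-coding gene on the other strand overlapped in 17 regions (4.31%), against 5.69% of the baseline. A non-coding gene or pseudogene outside the small RNA classes of the rule likewise lay within 200 bp of 17 summits, against 5.03% of the baseline, and 13 of these were annotated as ncRNA.

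**Figure D4:**
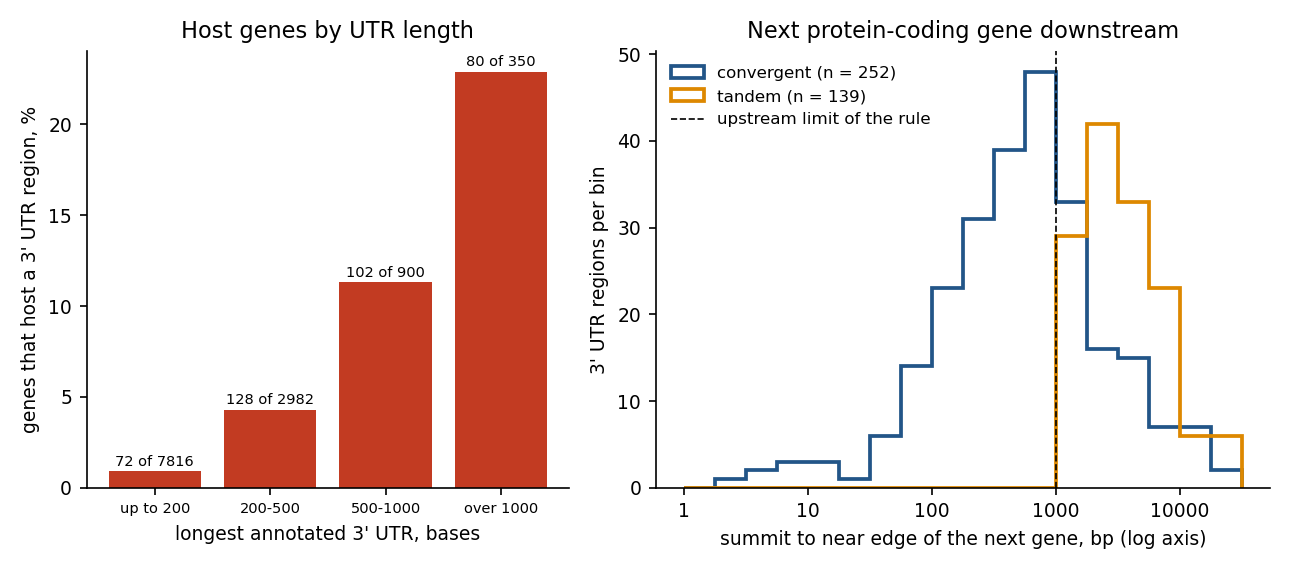
Left, share of eligible genes that host a 3′ UTR region by length of the longest annotated 3′ UTR (numbers of genes above the bars), from 0.921% up to 200 bases to 22.9% above 1000 bases. Right, number of regions by distance from the summit to the near edge of the next gene (logarithmic axis), for 252 convergent and 139 tandem genes. The dashed line is the 1000 bp upstream limit of the rule, and no tandem gene of these regions lies below it.

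GAGAGA and GGGCGG were more frequent at the regions than in the baseline, and the T-box core was not. The GGGCGG share was, however, close to that of all pooled regions, and the GAGAGA share close to that of intergenic regions. Median G+C content within 100 bp of the summit was 34.8% in the regions (quartiles 30.5 and 39.3%), against 32.3% in the baseline, 42.8% in coding exon regions, 37.8% in intron regions and 38.8% in intergenic regions. The T-box core GGTGTG was held by 14 of 394 (3.55%, interval 2.13 to 5.88%), against 4.23% of the baseline and 6.89% of all pooled regions. The share was 4.99% in coding exon regions, 6.51% in intron regions and 8.56% in intergenic regions. The baseline and the coding exon share lay inside the interval of the 3′ UTR regions, and the others above it.

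Signal was similar with and without the core. The median was 35.1 in the 14 regions with it and 33.8 in the 380 without it. The highest was npr-23, with a pooled signal of 62.1, 31.6 in replicate 1 and 28.0 in replicate 2, and it was the only 1 of the 14 found in both replicates. Of the regions whose cores are printed above, W06H8.6 had a pooled signal of 40.5 with 31.6 in replicate 1 alone, and B0524.6 had 38.8 with 25.2 in replicate 1 alone. Y43F8C.17 had 39.8 and no match in either replicate. The syd-9 region had 30.4, at rank 12396 of the pooled list, with 25.25 in replicate 1 alone. The core lay on the strand opposite to the host gene in 11 of 14 (78.6%, interval 52.4 to 92.4%), against 68.4% of the baseline bases that had the core in their window.

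GAGAGA was held by 84 regions (21.3%, interval 17.6 to 25.6%), against 13.8% of the baseline and 16.3% of all pooled regions. It was held by 9.24% of coding exon regions, 12% of intron regions and 20.5% of intergenic regions. The intergenic share lay inside the interval, as did those of promoter regions (19.3%) and regions near small RNA genes (20.6%). The other GAGAGA shares given here lay below it. GGGCGG was held by 28 regions (7.11%, interval 4.96 to 10.1%), against 3.02% of the baseline and 6.82% of all pooled regions. Coding exon regions held it in 4.33%, intron regions in 6.54% and intergenic regions in 5.68%. Of these GGGCGG shares, those of all pooled, intron and intergenic regions lay inside the interval and that of coding exons below it. For both words the baseline share lay below the interval, and G+C content moved with them: its part in these shares was not tested. GAGAGA was in 25.4% of the 197 regions of higher signal (interval 19.8 to 31.9%), against 17.3% of the 197 of lower signal (12.6 to 23.1%). GGGCGG was in 9.14% (5.86 to 14%) against 5.08% (2.78 to 9.09%). For both words the intervals of the 2 groups overlapped, and the other pooled regions were not split in this way. Median G+C content was 35.8% in the higher group and 33.3% in the lower.

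The polyadenylation hexamer AATAAA, which in the transcript precedes the cleavage site, was read on both strands. On the host strand it was in 26.9% of the regions, against 32.8% of the baseline, and on the opposite strand in 37.3%, against 41.9%. On either strand it was in 210 regions (53.3%), against 60.2% of the baseline and 32.2% of all pooled regions. It was in 45.7% of the regions of higher signal, against 60.9% of those of lower signal, the opposite order to GAGAGA. None of the 3 words described before it was found in 277 regions (70.3%), and 8 held more than 1 of them. A word in the window is not a bound site, and its absence says only that these letters are not within 100 bp of the summit.

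**Figure D5:**
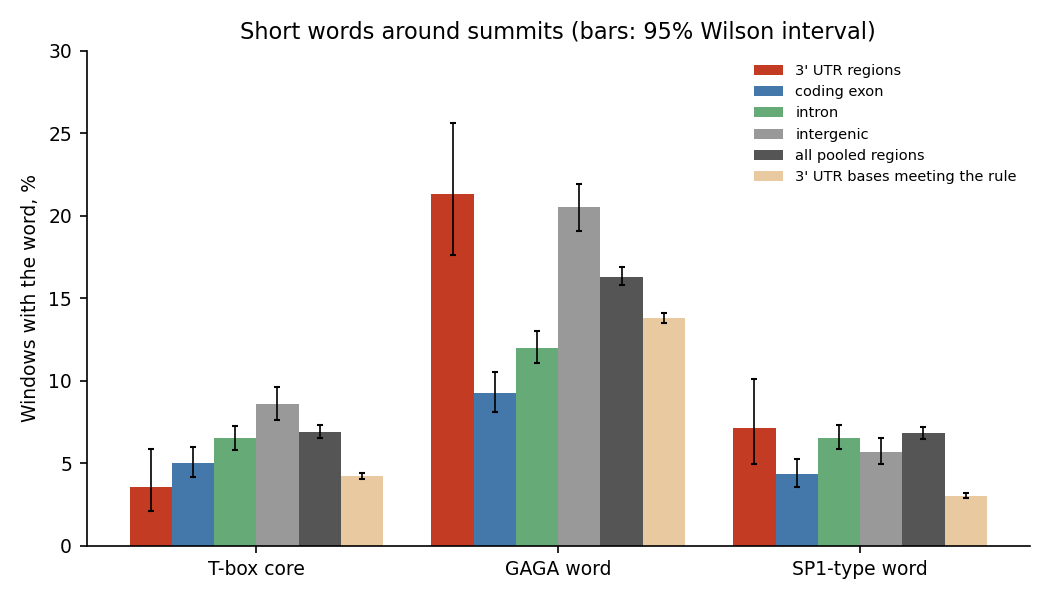
Share of windows of 100 bp to either side of the summit or base that hold the T-box core, the GAGA word or the SP1-type word searched, for 3′ UTR regions, coding exon, intron and intergenic regions, all pooled regions and the baseline of 3′ UTR bases meeting the rule. Error bars are 95% Wilson intervals of counting error; the GAGA word stands at 21.3% in 3′ UTR regions and 13.8% in the baseline, and the T-box core at 3.55% and 4.23%.

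The hosts were then read by gene group, beside 3.17% of all eligible genes. Epidermal morphogenesis genes, the group closest to the known role of TBX-8, had 6 hosts of 34 (17.6%), and their median UTR was 461.5 bases, against 137 for all genes. Their density was 400 regions per Mb from 7 regions, against 168 for all 3′ UTRs. No interval was computed for the group densities, which rest on 7 regions or fewer and carry wide counting error. Ribosomal protein genes had 723 from 2 regions, T-box genes 462 from 1 and histone genes 366 from 1. Wnt and Notch genes had 269, collagen genes 193 and RNA processing genes 167. Body-wall muscle genes, also of the known role, had 156, nuclear hormone receptors 155 and homeobox genes 149. Besides unc-70 and vab-1 the epidermal hosts were unc-34, the Enabled homolog, with a signal of 49.6, and noah-1, an apical matrix protein, with 41.8. The others were ptp-3, a LAR-type receptor phosphatase, with 37.9 and gex-2, a component of the WAVE actin regulator, with 27.7. The median of the 7 signals was 41.8, against 33.8 over all 394, and 1 of the 6 genes, unc-70, carried 2 overlapping regions.

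Replicate values of these genes varied. The unc-34 region had 20.5 at rank 9104 in replicate 1 and 23.8 at rank 3168 in replicate 2, and noah-1 had 21.7 at rank 7548 and 15.1 at rank 15837. The ptp-3 and gex-2 regions were found in replicate 2 alone, with 21.9 and 24.2. None of the 7 regions was in the authors' thresholded list, and those of vab-1 and the higher of unc-70 were the only ones with a q-value below 0.05.

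Signalling genes of the Wnt and Notch pathways had 3 hosts of 33 (9.09%). These were mom-1, the Porcupine homolog needed to modify Wnt ligands, with 41.4, egl-20, a Wnt ligand, with 36.6, and lit-1, the Nemo-like kinase, with 35.9. All 3 were found in both replicates but far from the top of either list, with mom-1 at ranks 7849 and 6156, egl-20 at 15630 and 7423 and lit-1 at 16265 and 9957 in replicates 1 and 2. T-box genes had 1 host of 16 (6.25%), tbx-2, with 28.0 and a match in replicate 2 alone. Neither tbx-8 nor tbx-9 had any pooled region within the gene or 1 kb of it, and the marker gene unc-119 had 4 regions, none in a 3′ UTR.

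The other groups held few hosts. Homeobox genes had 2 of 70 (2.86%), ceh-14 with 42.1 and vab-3, the Pax6 homolog, with 37.6. Nuclear hormone receptors had 5 of 176 (2.84%), led by nhr-119, fax-1 with 38.7 and nhr-270 with 33.1. Muscle genes had 2 of 36 (5.56%), pat-4, the integrin-linked kinase, with 33.7 and unc-15, paramyosin, with 27.9. Collagen genes had 2 of 120 (1.67%), col-99 with 34.6 and col-74 with 28.9. Ribosomal protein genes had 2 of 42 (4.76%), rpl-3 with 30.4 and rla-1 with 29.7, and histone genes 1 of 10, the linker histone gene hil-1 with 29.2. Genes of RNA processing had 1 of 19 (5.26%), the SR protein gene rsp-3 with 33.2. With 1 to 6 hosts a group, these shares carry wide counting error, and UTR length differs between groups.

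Regions just inside and just outside the limits of the rule had signals from 29.7 to 45.2, except mdf-2. Of 561 pooled regions with the summit in a 3′ UTR and in no coding sequence, 160 lay in a promoter window (median signal 35.4) and 7 close to a small RNA gene (median 39.9). Just inside the upstream limit lay flr-1, 1002 bp from a start with a signal of 30.7, Y50D7A.1 at 1028 bp with 35.2 and clp-1 at 1060 bp with 44.9. Just outside it lay epg-3 at 996 bp with 32.2, cyn-16 at 986 bp with 29.7 and aex-6 at 955 bp with 37.0. On the downstream side, idh-1 at 203 bp (34.2), ZC334.12 at 227 bp (30.03) and zhp-2 at 236 bp (44.3) were kept. On that side coh-4 at 173 bp (41.7), T27F6.8 at 118 bp (31.1) and W03D2.9 at 46 bp (35.7) were left out.

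For the small RNA limit, Y41D4B.4 at 238 bp (33.9), F58D5.5 at 293 bp (40.1) and rol-3 at 449 bp (45.2) were kept. Left out were F26A10.2 at 153 bp (39.4), mdf-2 at 67 bp (77.4) and glb-27 at 32 bp (40.7). The mdf-2 region was the only 3′ UTR summit of the thresholded list that the limits removed.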

How the data were processed

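ChIP-seq of tagged TBX-8 was available for 2 biological replicates of 1 group. The deposited files are a pooled list (16355 regions), a list for each replicate and a list of 521 regions thresholded for reproducibility, per the file headers and the labels on assembly ce11, which is WBcel235. The authors deposited a signal value for each region and a −log10 q-value; no source used here names the peak caller, the aligner or the scaling, and between lists only ranks and a correlation of log2 signals were compared, not levels. The lists give no read numbers, so depth is unknown, and all intervals (95% Wilson or exact Poisson) cover counting error only.

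Summits were placed on Ensembl release 115 genes (31865 protein-coding transcripts). All 31805 stop codons checked read as stops in the genome used, and 61908 of 61908 regions lay inside the chromosomes. Host, next gene, replicate match (summits within 100 bp) and words within 100 bp of the summit were then computed with Python 3.11.15, pandas 2.3.3, NumPy 2.4.6 and SciPy 1.17.1, and the class assignment was tested on simulated data. The baseline was every 50th base meeting the rule. No test was run, as the design has 1 group.

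The named regions are those in the thresholded list or at a q-value below 0.05, at least the 20 of highest signal, up to 3 hosts per gene list and the 3 nearest each limit. The rule fixed for printing sequences (the T-box core in a named region) found only npr-23, on a chromosome whose sequence is not printed, so those shown were chosen after their values were seen. Of the other regions with the core, a single one is not reported here. The members and gene lists were chosen with earlier results of these data known. The promoter window, small RNA distance, transcript choice, summit, replicates, q-value, matching, window and signal were varied as alternatives.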

Additional observations from a re-analysis of the deposited data

How the results depend on the processing

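Over 63 alternative values of 7 results, 46 stayed within the bound set for them, 16 moved by more and 1 changed sign. The bound was 1.5 times for a count, the 95% Wilson interval for a share and the SD over the 2 replicate lists for the log2 ratio. That SD was 0.000, so almost any shift of the ratio passed it, and 7 of the 16 are such shifts. The number of regions, 394, was 321 with the wider window, 554 with none and 326 with the longest-CDS UTR, all within 1.5 times. The log2 ratio of median signal, -0.03 in the pooled list, was -0.033 with a promoter window of 2000 bp upstream to 500 bp downstream, -0.017 with no window, -0.035 at over 500 bp from a small RNA gene, -0.028 with no such distance and -0.038 with the UTR of the longest-CDS transcript only. In the list of a single replicate it was -0.031 (without replicate 1) to -0.030 (without replicate 2), and it became 0.221 when only the regions of higher signal were kept, which follows from that choice. The tandem share was 28.3% with the wider window and 52.2% with none, against 35.3%. The share at a q-value below 0.05, 1.78%, was 0.761% at 0.01, and 0.858% to 1.74% in single replicates. Over all regions of the same lists these shares were 5.39% pooled, 3.18% at 0.01, and 3.93% to 4.03% in single replicates. The share found in both replicates, 28.4%, was 19.5% with summits within 50 bp, 55.3% with regions overlapping by at least 1 bp and 45.7% in the regions of higher signal. These alternatives were not computed over all pooled regions, so they do not set 3′ UTRs apart. The T-box core share, 3.55%, was 1.78% within 50 bp of the summit, a window for which no baseline share was computed. Of all 394 regions, 10 lay among the 1000 highest of the pooled list, and 3 among the 521 highest. In single replicates the number of regions was 575 to 583, those among the 521 highest 3 to 4, the core share 3.77% to 5.39% and the tandem share 37.0% to 39.1%. Using the middle in place of the summit changed nothing among the 7 results, since the 2 coincide. No paired analysis was possible because both replicates belong to 1 group. The lists hold no read numbers, so how far depth limits the small counts cannot be given.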
